A study of Mus musculus with 9 samples.

Results

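The genes described here are 9 early neural factors and markers, Sox1, Pax6, Zic1, Nes, Msi1, Hes5, Neurog2, Sox11 and Tubb3, in mouse embryonic stem cells with and without β-catenin. They were taken by symbol from the array's gene table. All 9 were found, each on 1 feature, among 19938 genes tested. Transcripts were measured on 9 whole-transcript arrays, 3 for each of 3 cell groups, on a log2 scale on which 1 unit is a doubling of signal.

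Null Eα cells lacked both alleles of the β-catenin gene and stably expressed a fusion of E-cadherin with α-catenin. Null cells lacked both alleles and carried no fusion. Flox cells, the controls, also lacked 1 allele and kept the second as an intact floxed allele, so no group had the full gene dose. All groups shared a mixed S129S6-C57BL/6 background, gelatin-coated plates, medium that held LIF, the self-renewal cytokine, at 1000 U/ml together with 15% calf serum, and collection below confluence. No neural differentiation step is named in the labels. The labels call the replicates biological and do not give the number of lines or clones, so p-values measure the spread between these arrays, and line and genotype cannot be told apart.

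Neural fate begins in the embryo when epiblast cells of the ectoderm, shielded from BMP and Nodal signals, switch on the SoxB1 factor Sox1 and become neural progenitors. Notch signalling holds progenitors in a dividing state through repressors of the Hes family, proneural factors of the Neurogenin family drive cells toward neurons, and SoxC factors such as Sox11 then act on neuronal genes, among them Tubb3. Embryonic stem cells without LIF and serum can enter this path in culture, and Wnt/β-catenin signalling is known to act against early neural commitment in such cells. Nes, Sox11 and Tubb3 are not exclusive to neural cells.

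The 9 genes did not move as 1 group. Sox1 and Hes5 were higher in null cells than in flox cells and higher again, by mean, in null Eα cells. Msi1 ran the opposite way, and Pax6 was low in null and null Eα cells alike. Nes and Sox11 were high in null cells and, on 2 of the 3 null Eα arrays, near the flox level, while Tubb3 was low in null cells and, in the values as deposited, near the flox level in null Eα cells. Zic1 and Neurog2 lay close to the lower quartile of all features on every array.

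Promoter windows of 4 of these genes are shown, because they stand for the 2 patterns the results turn on. Hes5 stands for the genes that rose in both lines. Nes, Sox11 and Tubb3 stand for those whose mean, in the values as deposited, lay nearer to flox in null Eα than in null cells. Each window runs from 250 bases before to 50 bases after a start site, 5′ to 3′ on the gene's strand, from RefSeq on GRCm38.p6. A window was found for 8 of the 9 genes, and Msi1 had no entry. Capitals mark matches on either strand to CTTTGAT, a TCF/LEF motif, through which β-catenin acts on DNA, TGGGAA, the core of the motif of the Notch effector RBPJ, or TCAGCACC, a half-site of the RE1 element bound by the neuronal gene repressor REST.
Hes5: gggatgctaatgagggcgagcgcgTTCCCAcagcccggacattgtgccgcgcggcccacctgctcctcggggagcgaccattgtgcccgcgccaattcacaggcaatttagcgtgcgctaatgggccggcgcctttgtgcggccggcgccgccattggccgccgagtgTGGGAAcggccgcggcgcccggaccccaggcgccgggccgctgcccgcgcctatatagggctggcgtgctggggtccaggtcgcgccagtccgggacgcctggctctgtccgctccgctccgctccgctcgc
Nes: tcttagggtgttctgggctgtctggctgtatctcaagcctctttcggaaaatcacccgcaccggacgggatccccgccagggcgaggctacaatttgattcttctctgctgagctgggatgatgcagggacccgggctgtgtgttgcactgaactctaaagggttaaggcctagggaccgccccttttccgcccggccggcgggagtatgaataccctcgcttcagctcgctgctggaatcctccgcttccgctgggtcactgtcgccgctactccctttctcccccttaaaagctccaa
Sox11: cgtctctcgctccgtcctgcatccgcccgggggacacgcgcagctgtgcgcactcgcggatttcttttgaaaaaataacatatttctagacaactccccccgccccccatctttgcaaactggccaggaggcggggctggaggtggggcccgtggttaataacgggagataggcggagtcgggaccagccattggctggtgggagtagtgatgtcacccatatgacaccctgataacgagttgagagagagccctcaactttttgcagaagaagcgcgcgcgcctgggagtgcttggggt
Tubb3: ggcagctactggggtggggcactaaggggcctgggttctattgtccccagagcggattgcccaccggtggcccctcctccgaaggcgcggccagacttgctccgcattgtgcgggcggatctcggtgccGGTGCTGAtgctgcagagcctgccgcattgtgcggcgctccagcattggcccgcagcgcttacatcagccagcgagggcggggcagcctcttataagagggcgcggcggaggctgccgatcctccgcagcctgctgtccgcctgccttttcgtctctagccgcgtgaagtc
The window of Hes5 lies at chr4:154960673-154960972, that of Nes at chr3:87970843-87971142 and that of Tubb3 at chr8:123411303-123411602, all on the plus strand, and that of Sox11 at chr12:27342669-27342968 on the minus strand. Hes5 held 2 matches to the RBPJ letters, at -226 and -82 from the start site. The window of Sox1, which is not shown, held 1 match to these letters, at 41. Tubb3 held 1 match to the RE1 half-site, at -121, and Nes and Sox11 held none of the 3 motifs. Among all 32851 promoter windows of this length, 25.6% held the RBPJ letters, 1.65% the RE1 half-site and 3.73% the TCF/LEF letters. The TCF/LEF letters were in none of the windows of the 8 genes. A match is only a run of letters in the window, and its use by a factor was not measured.

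Across all features the median value was 5.95 to 6.06 on every array, but the interquartile range was 3.21 to 3.37 on null Eα, 3.41 to 3.46 on null and 3.75 to 3.84 on flox arrays. Pluripotent cell markers averaged 9.89 to 10.15 per array in null Eα, 7.90 to 8.15 in null and 10.42 to 10.43 in flox cells (16 of 16 listed genes measured), so the labelled cell type was least marked in null cells, where 14 of the 16 fell and 2, Tdgf1 and Lin28a, rose against flox. Among them Dppa5a fell by 6.62 ± 0.15 in null cells and rose by 6.23 ± 0.15 in null Eα against null, Tfcp2l1 fell by 4.45 ± 0.12 in null cells and Esrrb rose by 4.98 ± 0.16 in null Eα against null. In null Eα cells against flox 11 of the 16 fell, among them Fgf4 (1.27 ± 0.09) and Utf1 (0.80 ± 0.08), while Tdgf1 rose and 4 were not called. Over all genes tested, 26.5% rose and 28.7% fell in null against flox. The shares were 32.1% and 31.6% in null Eα against flox. Null Eα replicate 3 was closer to the null arrays (Pearson correlation across features 0.978 to 0.980) than replicates 1 and 2 (0.964 to 0.970). Results for Nes, Sox11 and some other genes are also given without replicate 3, but not the counts of every list. Replicate 3 was also slightly closer than replicates 1 and 2 to each flox array (0.951 to 0.956 against 0.945 to 0.954). Fibroblast markers averaged 7.16 to 7.43 per array in null Eα, 7.63 to 8.27 in null and 5.40 to 5.56 in flox cells, over 15 of 16 listed genes. Of these, 12 rose and 1, Fbln1, fell in each line against flox, with rises of the collagen genes Col1a2 (4.82 ± 0.12) and Col1a1 (4.28 ± 0.14) in null cells and of Col1a2 (3.65 ± 0.12) and Col6a3 (2.30 ± 0.09) in null Eα cells, and the fibroblast markers Lum and Meox1 were not called. In bulk RNA, a change in the number of cells that express a gene cannot be told apart from a change in the level per cell.

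**Figure D1:**
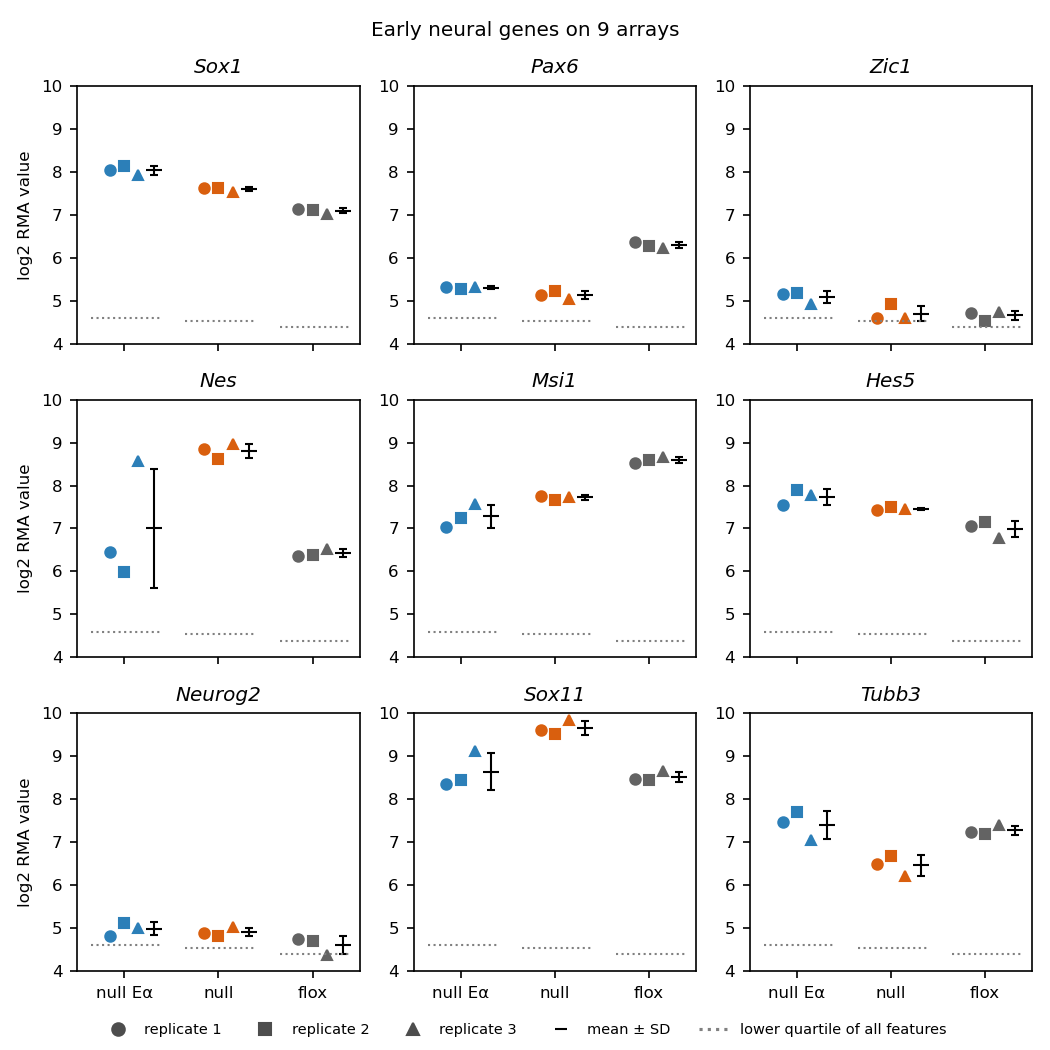
Log2 RMA value of each of the 9 early neural genes on every array, with null Eα, null and flox cells from left to right, point shapes for replicates, bars for mean ± SD (n = 3) and a dotted line for the mean lower quartile of all features in the group. Sox1 stands in 3 separate steps, Nes of null Eα replicate 3 lies at 8.58, just below the null arrays, and Zic1 and Neurog2 lie near the dotted line.

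Null cells against flox cells show what differs once the second β-catenin allele is gone as well. Of the 9 genes 5 rose, 3 fell and 1 was not called (limma, Benjamini-Hochberg adjusted p under 0.05 over all genes), with a median difference of 0.31. Over all genes tested, 55.2% were called, 26.5% higher and 28.7% lower, and the median difference was 0.06, so calls were common on these arrays and the count of 8 called is read against that share. The null and flox arrays did not overlap for 67.4% of all genes, against every member but Zic1.

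Among the progenitor transcription factors, Sox1, the SoxB1 factor that marks the first neuroectoderm (transcript cluster 10570189, chromosome 8), rose in both lines. Its values were 8.05, 8.14 and 7.92 on the null Eα arrays, 7.63, 7.63 and 7.54 on the null arrays, and 7.14, 7.11 and 7.02 on the flox arrays. No 2 groups overlapped, and the order was null Eα, then null, then flox. The difference was 0.51 ± 0.08 (SE) in null cells against flox (limma adjusted p = 2.90e-04, n = 3 arrays per group), a signal 1.42 times as high. Sox1 lies on chromosome 8, whose 559 brighter genes had a median difference of -0.54 in null cells, against -0.16 over the brighter genes of all chromosomes. With that chromosome's own shift removed, the Sox1 rise was 0.91 in null and 1.33 in null Eα cells.

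Pax6, a paired-box factor of forebrain, spinal cord and eye progenitors (transcript cluster 10474312, chromosome 2), was lower without β-catenin. It read 5.33, 5.27 and 5.31 in null Eα cells, 5.14, 5.22 and 5.03 in null cells, and 6.38, 6.28 and 6.22 in flox cells. Every null and null Eα array lay below every flox array, by a margin wider than the spread within any group. The fall was 1.16 ± 0.08 in null cells (limma adjusted p = 5.06e-07), which left 44.6% of the flox signal. In both lines Pax6 was down close to the level at which Zic1 was read, so these shares rest on dim values whose distance from background is unknown. Flox cells, kept under self-renewal conditions, thus had the highest Pax6 signal of the 3 groups, and the direction of Pax6 was opposite to that of Sox1.

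Zic1, a zinc-finger factor of dorsal neural tissue (transcript cluster 10595695, chromosome 9), read 5.15, 5.17 and 4.93 in null Eα, 4.59, 4.92 and 4.60 in null, and 4.71, 4.54 and 4.73 in flox cells. The lower quartile of all features was 4.56 to 4.63 in null Eα, 4.52 to 4.55 in null and 4.37 to 4.40 in flox cells, so Zic1 was dim throughout, and signal over background was not measured. The null and flox arrays overlapped, with a difference of 0.04 ± 0.11 (95% interval -0.20 to 0.29, limma adjusted p = 0.762), though with each chromosome centred it was 0.35 and called (adjusted p = 0.0253).

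Of the progenitor markers, Nes, which encodes the intermediate filament nestin (transcript cluster 10493114, chromosome 3), had the widest range among the 9 genes, 2.98 log2 units from lowest to highest array. It read 6.45, 5.97 and 8.58 on the null Eα arrays, 8.85, 8.62 and 8.96 on the null arrays, and 6.37, 6.37 and 6.53 on the flox arrays. The null arrays stood above all others, null Eα replicate 3 came next at almost their level, and null Eα replicates 1 and 2 lay around the flox values. The rise in null cells was 2.38 ± 0.51 (limma adjusted p = 0.00260), 5.22 times the flox signal. The SD was 1.39 on the null Eα arrays, whose spread enters the shared error, against 0.17 among null and 0.09 among flox arrays. Without null Eα replicate 3 the adjusted p for null against flox was 2.51e-07.

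Nestin filaments also occur in mesenchymal cells, and the fibroblast markers moved with the Nes rise in null cells. On null Eα replicate 3, however, the fibroblast list averaged 7.23, inside the range of its group, while Nes stood just below the null values there. On null Eα replicates 1 and 2 Nes read 6.45 and 5.97, around the flox values. The fibroblast list averaged 7.16 to 7.43 on the null Eα arrays and 5.40 to 5.56 on the flox arrays. The part of fibroblast-like cells in the Nes signal was not tested.

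Msi1, which encodes the RNA-binding protein Musashi1 of neural stem cells (transcript cluster 10524684, chromosome 5), fell in both lines. It read 7.03, 7.24 and 7.57 in null Eα, 7.77, 7.66 and 7.74 in null, and 8.52, 8.58 and 8.66 in flox cells. No 2 groups overlapped, and the order, flox first and null Eα last, was the reverse of that of Sox1. The fall in null cells was 0.87 ± 0.12 (limma adjusted p = 1.37e-04), which left 54.9% of the flox signal.

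Hes5, a repressor of the Notch pathway that keeps neural progenitors undifferentiated (transcript cluster 10510950, chromosome 4), rose in both lines. It read 7.54, 7.90 and 7.77 in null Eα, 7.43, 7.49 and 7.46 in null, and 7.05, 7.14 and 6.79 in flox cells. Every null and null Eα array lay above every flox array. The rise in null cells was 0.47 ± 0.11 (limma adjusted p = 0.00486), a 1.38-fold higher signal.

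Neurog2, the proneural factor that commits progenitors to a neuronal fate (transcript cluster 10495964, chromosome 3), read 4.82, 5.12 and 5.01 in null Eα, 4.88, 4.82 and 5.02 in null, and 4.74, 4.70 and 4.36 in flox cells. These values too lay near the lower quartile of all features. A difference of 0.31 ± 0.12 in null cells was called (limma adjusted p = 0.0467), but the call was lost in 10 of 17 alternatives, with adjusted p from 0.0361 to 0.850, and the sign turned to -0.03 once the shift of chromosome 3 was removed. Without null replicate 1, 2 or 3 or flox replicate 2 or 3 the difference was 0.19 to 0.35 and not called.

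Sox11, a SoxC factor of newborn neurons that is also present in other embryonic tissues (transcript cluster 10399725, chromosome 12), rose in null cells. It read 8.35, 8.44 and 9.13 in null Eα, 9.60, 9.51 and 9.83 in null, and 8.46, 8.46 and 8.66 in flox cells. As for Nes, the null arrays were highest, null Eα replicate 3 lay between the groups, and null Eα replicates 1 and 2 lay at or just below the flox values. The rise was 1.13 ± 0.18 in null cells (limma adjusted p = 3.77e-04), 2.18 times the flox signal.

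Tubb3, the class III β-tubulin of neurons (transcript cluster 10576332, chromosome 8), showed the mirror image. It read 7.48, 7.69 and 7.05 in null Eα, 6.48, 6.68 and 6.21 in null, and 7.24, 7.20 and 7.39 in flox cells. The null arrays were the lowest 3 of the 9, and null Eα replicate 3 was the lowest of its group. The fall in null cells was 0.82 ± 0.16 (limma adjusted p = 0.00161), which left 56.6% of the flox signal. Tubb3 shares chromosome 8 with Sox1. With the shift of that chromosome removed the fall was 0.42 (adjusted p = 0.0483), and with each chromosome centred on its own brighter genes the difference was -0.14 (adjusted p = 0.492).

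**Figure D2:**
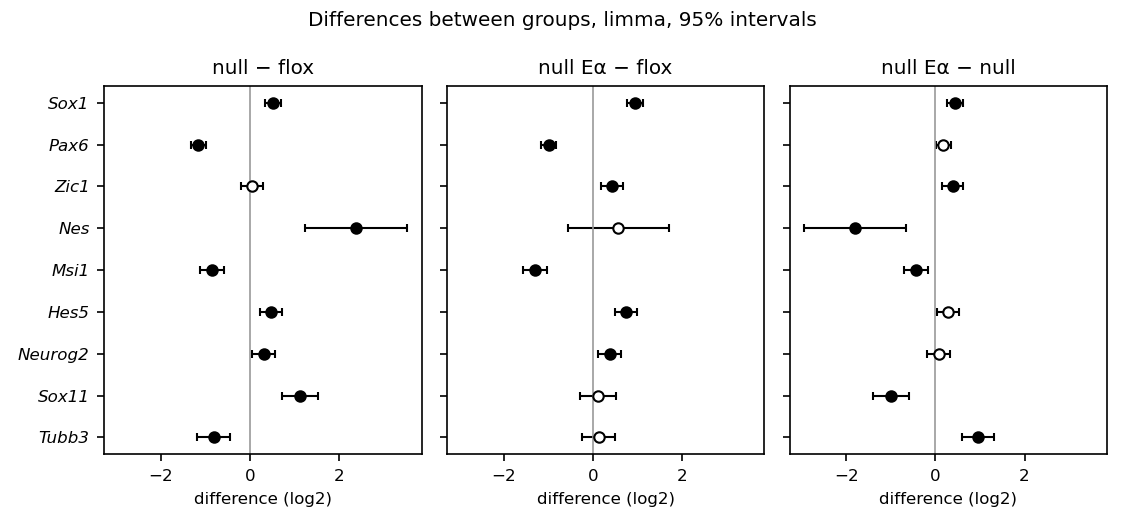
Difference between groups in log2 units for each gene (points) with its 95% interval (lines) from limma, in panels for null minus flox, null Eα minus flox and null Eα minus null. Filled points were called at an adjusted p under 0.05, and the wide intervals of Nes, 1.24 to 3.53 in the first panel, reflect null Eα replicate 3.

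Null Eα cells against flox cells show what still differs from control when the fusion is present. Of the 9 genes 4 rose, 2 fell and 3 were not called, with a median of 0.38, beside 63.7% of all genes called (6399 higher and 6295 lower, or 4674 higher and 6987 lower with each array centred on its median). The groups did not overlap for 69.5% of all genes and for 6 of the 9. This comparison shares its flox arrays with the one above. Sox1 rose by 0.94 ± 0.08 (limma adjusted p = 3.93e-06), Hes5 by 0.75 ± 0.11 (adjusted p = 2.50e-04) and Zic1 by 0.43 ± 0.11 (adjusted p = 0.00704, 0.116 after quantile normalization). Neurog2 rose by 0.38 ± 0.12 (adjusted p = 0.0154), a call lost after quantile normalization (0.17), without flox replicate 3 (0.27), without null Eα replicate 2 (0.32) and with the chromosome shift removed (0.17).

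The fall of Msi1 here was 1.31 ± 0.12 (adjusted p = 8.17e-06), which left 40.4% of the flox signal. Pax6 fell by 0.99 ± 0.08 (adjusted p = 2.16e-06), which left 50.3%. These falls were of the order of those in null cells, so neither gene was near its flox level in the line with the fusion.

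The genes not called were Nes, Sox11 and Tubb3. Nes differed by 0.58 ± 0.51 (95% interval -0.57 to 1.72, limma adjusted p = 0.338), and by -0.21 without null Eα replicate 3 (adjusted p = 0.220). Sox11 differed by 0.12 ± 0.18 (-0.28 to 0.52, adjusted p = 0.577), and by -0.12 without replicate 3. Its difference was called after quantile normalization (0.45, adjusted p = 0.0402) and was -0.02 with the shift of chromosome 12 removed. Tubb3 differed by 0.13 ± 0.16 (-0.23 to 0.50, adjusted p = 0.498), by -0.01 without null Eα replicate 2, and by 0.52 with the chromosome 8 shift removed (adjusted p = 0.0175). With each chromosome centred on its own brighter genes, Tubb3 and Sox11 were called higher in null Eα cells, Tubb3 at 0.95 (adjusted p = 5.90e-04) and Sox11 at 0.42 (adjusted p = 0.0290).

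Null Eα cells against null cells show what differs with the fusion when β-catenin is absent from both. Of the 9 genes 3 rose, 3 fell and 3 were not called, beside 31.7% of all genes called, 13.6% higher and 18.1% lower, with a median over all genes of 0.05. The groups did not overlap for 43.1% of all genes and for 8 of the 9, the exception being Neurog2. Nes fell by 1.81 ± 0.51 (limma adjusted p = 0.0223), to 28.6% of the null signal. Without null Eα replicate 3 the fall was 2.60 (adjusted p = 1.81e-06). The call was lost when any other null Eα array, or null replicate 1 or 3, was left out (-1.79 to -1.29), with a trended and robust prior (adjusted p = 0.0514) and with only these 2 groups in the fit (adjusted p = 0.0643). Sox11 fell by 1.01 ± 0.18 (adjusted p = 0.00215), to 49.7% of the null signal, and by 1.25 without replicate 3. Tubb3 rose by 0.95 ± 0.16 (adjusted p = 0.00169), 1.93 times the null signal, and by 1.13 without replicate 3.

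Sox1 rose further, by 0.44 ± 0.08 (limma adjusted p = 0.00225), and thus moved away from the flox level rather than toward it. Msi1 moved away from flox as well and fell by 0.44 ± 0.12 (adjusted p = 0.0190). Zic1 rose by 0.38 ± 0.11 (adjusted p = 0.0236). The Msi1 and Zic1 calls were lost when null replicate 1, null replicate 3, null Eα replicate 1 or null Eα replicate 2 was left out (-0.43 to -0.32 and 0.33 to 0.35), and with only these 2 groups in the fit (adjusted p = 0.0525 for each). The Zic1 call was also lost with the chromosome shift removed (0.21, adjusted p = 0.150). Hes5 differed by 0.28 ± 0.11 (95% interval 0.03 to 0.53, adjusted p = 0.0844) and Pax6 by 0.17 ± 0.08 (0.0044 to 0.34, adjusted p = 0.108), and for both every null Eα array lay above every null array. Neurog2 differed by 0.08 ± 0.12 (-0.18 to 0.34, adjusted p = 0.630), with overlapping groups.

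Genes with the profile most like each member's over the 9 arrays were found by Pearson correlation among 6434 genes whose values spanned at least 1 log2 unit. The arrays fall into 3 groups, so a high value mostly says that 2 genes order the groups alike. For Nes they were Fndc3c1 (0.997), a fibronectin type III domain gene, and Cdk6 (0.997), the G1 kinase. Cdk6 read 9.13, 9.06 and 10.51 in null Eα, 10.62, 10.51 and 10.81 in null, and 9.20, 9.17 and 9.26 in flox cells, so it too was near the null values on null Eα replicate 3. For Sox11 they were Rgs17 (0.993), a regulator of G-protein signalling, and Cenpe (0.992), a kinetochore motor. For Tubb3 they were Gsta4 (0.972), a glutathione transferase, and Gli1 (0.972), a transcription factor and target of Hedgehog signalling. For Sox1 they were Apex1 (0.992), a DNA repair nuclease, and 4930519F09Rik (0.989). For Msi1 they were Zcchc8 (0.998), of a nuclear RNA exosome complex, and Hsd17b11 (0.994), a steroid dehydrogenase. For Pax6 they were Hspbp1 (0.997), a regulator of heat shock protein 70, and 1700028I16Rik (0.996), and for Hes5 Mir193a (0.994) and Tff2 (0.990), a trefoil peptide.

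Other genes of the neural programme went both ways. Of 33 measured neural progenitor genes 9 rose and 8 fell in null against flox (median 0.08), 11 rose and 10 fell in null Eα against flox (0.11), and 8 rose and 9 fell in null Eα against null (0.07). Over all genes 26.5% rose and 28.7% fell, 32.1% rose and 31.6% fell, and 13.6% rose and 18.1% fell in the same comparisons. With dim genes left out, 15 progenitor genes remained. Of these 6 rose and 6 fell, 2 rose and 7 fell, and 5 rose and 8 fell, in the same order. Their medians were -0.09, -0.26 and -0.44, beside -0.16, -0.29 and -0.08 over all brighter genes, of which 45.8%, 52.7% and 33.4% fell. Sox2, the SoxB1 factor shared by pluripotent and neural cells, averaged 11.31 in null Eα, 10.22 in null and 11.57 in flox cells. It fell by 1.34 ± 0.09 in null cells (limma adjusted p = 4.34e-07), while its relative Sox3 rose by 0.27 ± 0.09 there and by 0.56 ± 0.09 in null Eα cells. Sox1 and Sox3 thus rose in both lines where Sox2 fell.

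Zic2 and Zic5, close relatives of Zic1 that are also present in pluripotent cells, fell by 2.71 ± 0.42 and 2.19 ± 0.31 in null Eα cells against flox, in which Zic1 rose from its dim level. Zic2 read 7.81, 7.23 and 9.40 and Zic5 8.13, 7.98 and 9.49 on the null Eα arrays, so replicate 3 stood well above the others, and without it the differences from flox were -3.34 and -2.67. En2, a midbrain and hindbrain homeobox gene, fell in both lines (1.66 ± 0.12 for null, 1.07 ± 0.12 for null Eα), and Meis2, a TALE homeobox gene, fell by 1.36 ± 0.14 and 1.46 ± 0.14. Olig2, a factor of motor neuron and oligodendrocyte progenitors, fell by 1.86 ± 0.16 in null cells and rose by 1.54 ± 0.16 in null Eα against null (limma adjusted p = 7.35e-05). Otx2, of epiblast and forebrain, rose by 1.27 ± 0.28 in null cells and fell by 1.18 ± 0.28 in null Eα against null (-1.57 without null Eα replicate 3), in the direction of Nes and Sox11.

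Notch pathway genes other than Hes5 gave 4 rises and 8 falls of 20 in null against flox (median -0.15), and 5 rises and 10 falls in null Eα against flox (-0.23). The 5 rises were Notch3, Hes1, the ligand Dll4, the Hes family gene Hes3 and the target Heyl. The shares called were 60% and 75%, beside 55.2% and 63.7% of all genes. With dim genes left out, 4 rose and 8 fell of 13 in null cells, and 2 rose and 8 fell in null Eα cells. Falls were thus 61.5% in each, beside 45.8% and 52.7% of all brighter genes. The 4 that rose in null cells were the receptors Notch3 (2.29 ± 0.34) and Notch2 (1.15 ± 0.17), the target Hes1 (1.87 ± 0.21) and the coactivator Maml1 (0.30 ± 0.10). Rbpj, the DNA-binding effector of the pathway, fell in null cells by 1.22 ± 0.07 and in null Eα cells by 0.52 ± 0.07 (limma adjusted p = 2.31e-07 in null). Of the Fringe genes, which modify Notch receptors, Mfng fell by 1.21 ± 0.11 and Rfng by 1.36 ± 0.14 in null cells. In null Eα cells Rfng fell by 1.33 ± 0.14 and Mfng by 0.78. Lfng was called lower in both lines (-0.31 for null, -0.27 for null Eα). Numb, an inhibitor of Notch, fell by 1.01 ± 0.14 in null Eα against flox and by 0.42 in null against flox.

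Hes1 and Hes5, the best-known Notch targets of neural progenitors, were not called alike in null Eα against null cells. Both were higher in null than in flox cells, but in null Eα against null Hes1 fell by 0.90 ± 0.21 (limma adjusted p = 0.00917), whereas Hes5 lay at 0.28 ± 0.11 and was not called. The difference between these 2 changes was not itself tested. Without null Eα replicate 3 the Hes1 difference was -1.13. In null Eα against null, 3 of the 20 genes rose, Rbpj (0.71 ± 0.07), Dll3 (0.45 ± 0.13), a ligand-like inhibitor, and Mfng (0.44 ± 0.11), and 6 fell, among them Maml1 (-0.60 ± 0.10). Over all genes 13.6% rose and 18.1% fell in that comparison. Without null Eα replicate 3, Hes3 (0.44) was also called higher, and Jag1 (-0.38) and Jag2 (-0.35) were also called lower.

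**Figure D3:**
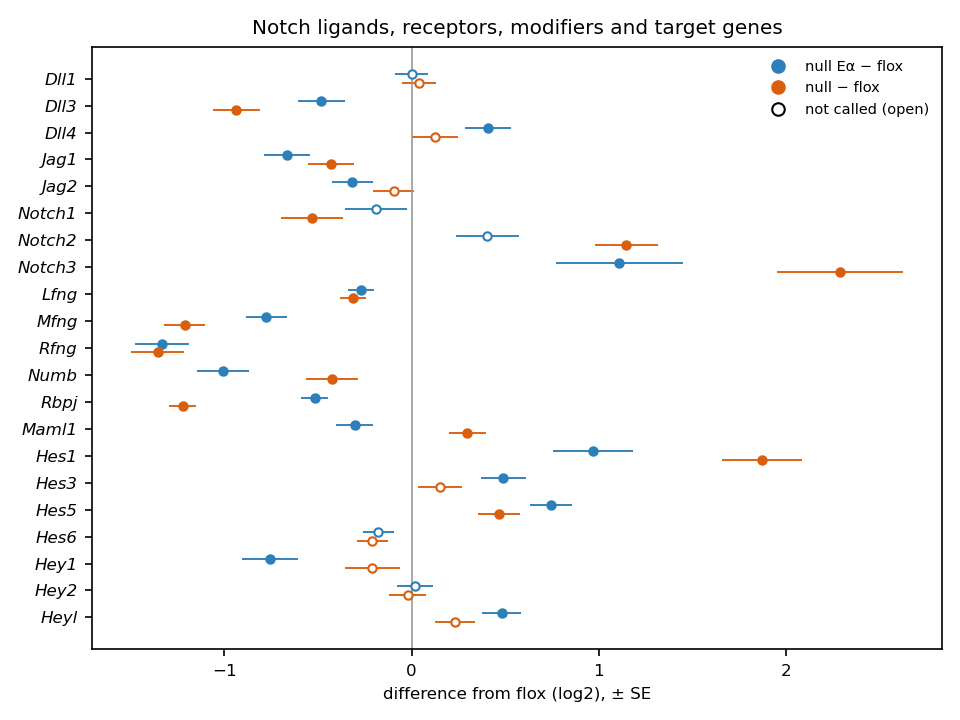
Difference from flox in log2 units, with SE, of Notch ligands, receptors, modifiers, effectors, targets and other Hes family genes in null Eα cells (upper point of each pair) and null cells (lower point). Filled points were called. Hes5 lies right of 0 in both lines (0.75 and 0.47), as do Hes1 and Notch3, while Rbpj lies left of 0 in both.

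Of 18 measured proneural genes and their inhibitors 3 rose and 7 fell in null against flox (median 0.02), and 7 rose and 4 fell in null Eα against flox (0.19). The shares called, 55.6% and 61.1%, were near the 55.2% and 63.7% of all genes. With dim genes left out, 1 rose and 4 fell of 7 in null against flox (median -0.77). In null Eα against flox 2 rose and 2 fell of the 7 (0.20), beside falls in 45.8% and 52.7% of all brighter genes. Among all 18, the rises in null cells were the neuronal factors Neurod2 (0.40 ± 0.08) and Myt1l (0.56 ± 0.09) and the bHLH inhibitor Id1 (0.60 ± 0.08). The falls in null Eα cells were Neurog1, Id3, Neurog3 (0.40 ± 0.12) and Ebf1 (1.24 ± 0.19). Neurog1, the close relative of Neurog2, fell in both lines, by 2.13 ± 0.10 without the fusion and 1.77 ± 0.10 with it (limma adjusted p = 4.30e-08 and 2.46e-07). It averaged 5.40 in null Eα, 5.04 in null and 7.17 in flox cells, so flox cells had the highest Neurog1 signal. The null and null Eα values of Neurog1 were dim, like those of Pax6. Id3, an inhibitor of bHLH factors and BMP target, fell by 1.04 ± 0.11 in each line. In null Eα against null, 5 of the 18 rose and 1, Id1, fell, beside rises in 13.6% and falls in 18.1% of all genes. The rises were Id2 (1.05 ± 0.11), Id4 (1.08 ± 0.12), Rest, Neurog1 (0.36 ± 0.10) and Insm1 (0.39 ± 0.12). Without null Eα replicate 3, Neurod1 (0.40), Neurod4 (0.27) and Myt1 (0.37) were also called higher and Ebf1 (-0.50) lower. Rest, the repressor of neuronal genes, averaged 10.70 in null Eα, 9.74 in null and 10.50 in flox cells. It fell by 0.77 ± 0.10 in null cells and rose by 0.96 ± 0.10 in null Eα against null (adjusted p = 1.05e-04). Tubb3, whose promoter window holds an RE1 half-site match, was also lowest in null cells in the values as deposited. With each chromosome centred, its difference from flox there was -0.14 and not called. A link between Rest and Tubb3 was not tested.

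In the neuronal list more genes fell than rose against flox. Of 26 genes 16 fell and 5 rose in null against flox (median -0.55, all genes 0.06), and 15 fell and 5 rose in null Eα against flox (-0.32, all genes 0.07), with falls in 28.7% and 31.6% of all genes. With dim genes left out, 13 of 16 fell in null and 12 of 16 in null Eα cells (medians -0.89 and -0.67), beside falls of 45.8% and 52.7% and medians of -0.16 and -0.29 over the 9969 brighter genes. Its average per array was 7.08 to 7.25 in null Eα, 6.89 to 6.97 in null and 7.40 to 7.42 in flox cells, without overlap between groups. Stmn2, a tubulin-binding protein of growing axons, fell by 3.30 ± 0.38 in null cells and rose by 2.33 ± 0.38 in null Eα against null (limma adjusted p = 0.00119), the directions of Tubb3. Stmn3, its relative, fell in both lines, by 1.14 ± 0.08 in null cells and 0.75 ± 0.08 in null Eα cells. The β-tubulin gene Tubb2b was called below flox in both lines, by -1.83 ± 0.16 for null and -1.43 ± 0.16 for null Eα. Crmp1, of axon guidance, fell by 0.86 ± 0.09 in null Eα cells against flox, and Mapt, which encodes tau, rose by 0.71 ± 0.11 in null Eα against null.

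The 5 neuronal genes that rose in null cells were Gap43, Sox4, Dcx, Syp and Tubb4a. Dcx was dim (4.44 to 4.56 on the null Eα arrays), and its signal over background was not measured. Gap43, a growth cone protein, rose in both lines (2.68 ± 0.20 for null, 1.66 ± 0.20 for null Eα) and fell by 1.02 ± 0.20 in null Eα against null. Sox4, the SoxC relative of Sox11, rose by 1.29 ± 0.17 in null cells and fell by 0.86 ± 0.17 in null Eα against null (limma adjusted p = 0.00355), the directions of Sox11. Sox12, the third SoxC gene, fell by 0.65 ± 0.10 in null cells (limma adjusted p = 2.18e-04) and differed by -0.12 ± 0.10 in null Eα against null, where it was not called.

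Gfap, the astrocyte filament, averaged 5.07 in null Eα, 5.01 in null and 4.95 in flox cells and was not called. Of 9 measured glial genes 1, S100b (0.53 ± 0.11), rose in null against flox and 4 fell, Cnp (1.77 ± 0.13), Aldh1l1 (0.95 ± 0.13), Olig1 (0.80 ± 0.28) and Mbp (0.31 ± 0.08), and Cnp fell by 2.01 ± 0.13 and Aldh1l1 by 1.21 ± 0.13 in null Eα cells. The one glial call in null Eα against null was Slc1a3, a glutamate transporter, which fell by 0.92 ± 0.25. Without null Eα replicate 3 the Slc1a3 difference was -1.29, and Aldh1l1 was also called lower (-0.40, limma adjusted p = 0.0146). With all arrays in the fit, 55.6% and 11.1% of the glial genes were called in null against flox and in null Eα against null. Over all genes the shares were 55.2% and 31.7%. Of 11 crest genes 2 rose, Tfap2b (0.31 ± 0.10) and Msx1 (0.25 ± 0.09), and 2 fell in null against flox, the falls being Foxd3 (1.61 ± 0.13), a factor shared with pluripotent cells, and Ngfr (0.58 ± 0.09), and 5 rose in null Eα against null, Ngfr (0.55 ± 0.09), the homeobox gene Msx1 (0.40 ± 0.09), Twist1 (0.50 ± 0.17), Foxd3 (0.42 ± 0.13) and Tfap2b (0.29 ± 0.10). That count of 5 was 2 without flox replicate 2, null replicate 2 or null replicate 3, and 6 with each chromosome centred. Without null Eα replicate 3 the Twist1 and Tfap2b differences were 0.33 (limma adjusted p = 0.113) and 0.31 (adjusted p = 0.0558), and Ednrb was called higher (0.44, adjusted p = 0.00537). With all arrays, 36.4% of the crest genes were called in null against flox and 45.5% in null Eα against null. These shares stand beside 55.2% and 31.7% of all genes.

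Of 20 genes of the signals that induce or pattern neural tissue, 11 rose and 6 fell in null against flox (median 0.41), and 9 rose and 4 fell in null Eα against flox (0.39). Those 4 were Gli2, Gli3 (1.09 ± 0.26, a difference of -1.45 without null Eα replicate 3), and the retinoid pathway genes Aldh1a2 (1.12 ± 0.17) and Crabp2 (0.80 ± 0.12). Over all genes 26.5% rose and 28.7% fell in null against flox. In null Eα against flox, 32.1% of all genes rose and 31.6% fell. Grem1, a secreted BMP antagonist, rose by 4.13 ± 0.27 in null Eα cells (limma adjusted p = 7.40e-07) and by 3.77 ± 0.27 in null cells. The Hedgehog receptor and target Ptch1 fell by 2.24 ± 0.09 in null cells and rose by 2.13 ± 0.09 in null Eα against null (adjusted p = 1.90e-07), with means of 9.68 in null Eα, 7.56 in null and 9.80 in flox cells. Gli1 averaged 7.62 in null Eα, 6.16 in null and 7.37 in flox cells and rose by 1.46 ± 0.13 in null Eα against null. Gli2, a transcription factor of the same pathway, was below flox in both lines, at -1.44 ± 0.10 for null and -0.93 ± 0.10 for null Eα.

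**Figure D4:**
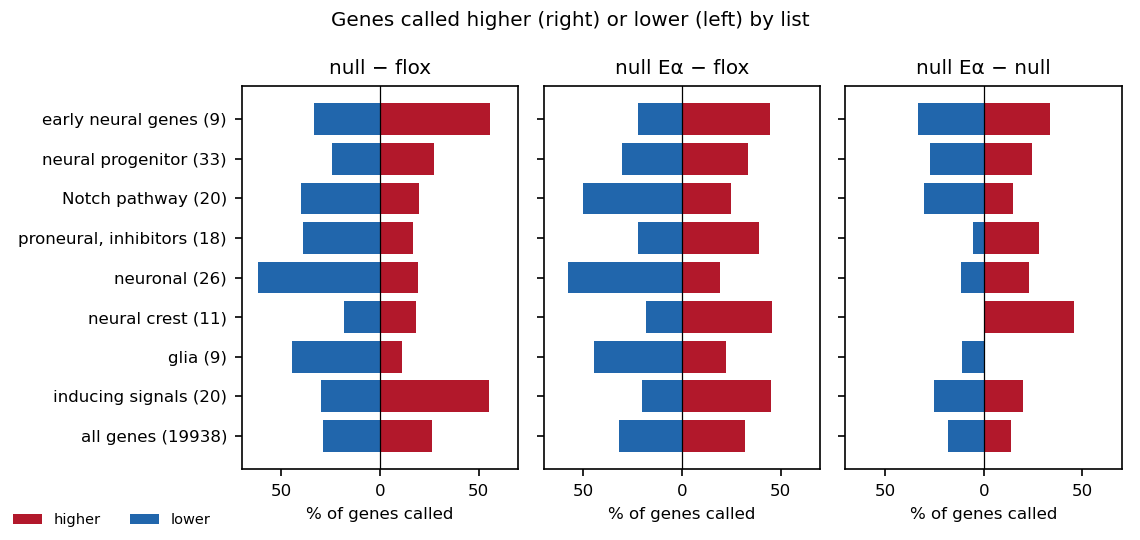
Percentage of genes called higher (right of 0) and lower (left of 0) in each list and over all 19938 genes, in panels for null minus flox, null Eα minus flox and null Eα minus null, with the number measured in brackets. In null minus flox, 16 of 26 neuronal genes lie on the lower side, and the 9 early neural genes are split 5 higher to 3 lower.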

How the data were processed

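The table deposited by the authors holds log2 values, and the submitters' processing notes name RMA without a version. It has 1 value per transcript cluster and array, for 35556 features and 9 arrays of biotin-labelled total RNA. They were used as deposited. The labels do not say whether the groups were normalized together. The platform's gene table gave 1 symbol to 21789 features, several to 1621 and none to 12146. Features with several symbols were left out, and the feature with the highest mean stood for each gene, which gave 19938 genes. Chromosomes and promoter windows came from RefSeq tables of GRCm38.p6.

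Each gene was fitted by limma 3.58.1 (R 4.3.3, lmFit and eBayes) with 1 coefficient for each group over the 9 arrays and no replicate block, with Benjamini-Hochberg adjustment over all genes and a call at 0.05. Errors after ± are limma's SE unless SD is written. The fit was tested on simulated data. Brighter genes are the 9969 whose mean over the arrays was at least the median of such means. The precision was limited by 3 arrays per group. Figures were drawn with matplotlib 3.10.9.

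The 9 genes and 9 other lists (173 entries, 168 measured) were chosen with earlier results of these data known. Of each list the text names the 2 called genes of smallest p in each comparison and genes behind a count of 5 or fewer. Sox3, Sox12, Zic2, Zic5, Otx2, Tubb2b, Lum, Meox1 and Gfap were named after their values were seen. So were Lfng, Jag1, Jag2, Neurod1, Neurod4, Myt1 and Ednrb. Alternatives changed the normalization, centring, chromosome shift, dim-gene filter, prior, arrays in the fit, feature rule, replicate block and each replicate. The remaining list entries were not analysed here.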

Additional observations from a re-analysis of the deposited data

How the results depend on the processing

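Of 477 member differences recomputed under 17 or 18 alternatives each, 429 kept their direction and their side of the threshold, 32 lost a call, 8 gained one and 8 changed sign. Sox1, Pax6, Hes5 and Msi1 against flox, Nes and Sox11 in null against flox, and Sox1, Sox11 and Tubb3 in null Eα against null kept direction and call under every alternative that was run for them. The 8 changes of sign were all in differences that were not called, except Neurog2. Zic1 in null against flox was -0.11 after quantile normalization and -0.065 to 0.097 without single replicates, below 0 without flox replicate 2 or null replicate 2, and 0.35 with each chromosome centred. Neurog2 in null against flox was -0.03 and Sox11 in null Eα against flox -0.019 when the shift of each chromosome relative to all brighter genes was removed, an alternative chosen after seeing the data. Leaving out single arrays, null Eα against flox ranged over -0.12 to 0.26 for Sox11, -0.21 to 1.09 for Nes (lowest without null Eα replicate 3 for both) and -0.013 to 0.31 for Tubb3 (lowest without null Eα replicate 2). The cause was not tested.

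The number of members called in null Eα against flox was 3 of 6 measured with dim genes left out, which removed 3 members from the test. In null Eα against null it was 3 with only the groups compared in the fit. Leaving out each replicate gave 7 to 8 members in null against flox, 5 to 6 in null Eα against flox and 3 to 6 in null Eα against null. Centring each chromosome moved the calls over all genes to 11033 higher and 3992 lower in null against flox, 12564 and 3272 in null Eα against flox, and 6369 and 2520 in null Eα against null, with the median of all genes shifted by 0.26, 0.39 and 0.13. With dim genes left out, 2719 higher and 4569 lower, 1918 and 5251, and 1785 and 3334 of 9969 genes were called in the same comparisons.

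With the replicate number as a block, 7, 6 and 6 members were called, and the 1 changed call was Neurog2 in null against flox (0.31, limma adjusted p = 0.0641). Deviations of same-numbered arrays correlated at -0.03 to 0.08, 0.06 to 0.21 and 0.09 to 0.26 in the same order of comparisons. Those of differently numbered arrays ran from -0.11 to 0.07, -0.19 to 0.14 and -0.20 to 0.10. The numbers were not taken as pairs in the main fit, though these values do not exclude some shared structure. Whether same-numbered arrays share a batch was not tested. Signal over background was not measured, which limits Zic1 and Neurog2, and Pax6 in null Eα and null cells. The same limit holds for dim genes of the other lists, such as Neurog1 in null cells (mean 5.04). On the null Eα arrays Dcx read 4.44 to 4.56, Neurog3 4.56 to 4.85 and Tfap2b 4.71 to 5.10.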
